A study of Homo sapiens with 16 samples.

Results

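CEM is an established human line of T-cell acute lymphoblastic leukaemia. Its gene expression was measured after 15 h with DMSO, the vehicle, or with 1 uM PD-0332991, on 2 Affymetrix U133 Plus 2.0 arrays per treatment. The members are the 4 CEM arrays of 16 in all, taken by their labels, and the response is the PD-0332991 level minus the DMSO level of each gene. The other 12 arrays hold 3 further T-ALL lines, CUTL1, DND41 and Jurkat, in the same design of 2 DMSO and 2 PD-0332991 arrays each, and serve here as the reference for what is particular to CEM. All groups were grown in RPMI medium with fetal calf serum, and CEM is a single line, so that its arrays sample 1 line and not a set of patients. Whether the 2 arrays of a group stem from different cultures is not stated in the labels, and the p-values therefore cover the spread between arrays, which may be technical. Levels are log2 of the deposited intensity and changes are log2 differences, so that -1 is a halving. Of 19775 genes with a probe set 13483 were tested, and the other 6292 did not reach the dim level of 4.88, the median of all values, as the mean of any line.

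PD-0332991, also known as palbociclib, inhibits CDK4 and CDK6. These kinases pair with D-type cyclins and phosphorylate the retinoblastoma protein RB, which otherwise holds E2F transcription factors at the promoters of genes for DNA replication. With the kinases inhibited, RB stays bound, E2F targets are repressed and cells stop before S phase. Genes of G2 and mitosis are controlled later in the cycle, by the MuvB complex with MYBL2 and FOXM1, and in resting cells by DREAM, which uses the pocket proteins RBL1 and RBL2. In developing T cells CDK6 and cyclin D3 are the main members of this pathway, and T-ALL cells usually express both.

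The CEM arrays were close to each other. Replicate arrays correlated at r of 0.997 with DMSO and 0.996 with PD-0332991, with median absolute differences of 0.094 and 0.108, inside the range of the series (r of 0.993 to 0.998). The 18S ribosomal RNA signal overlapped between treatments, at 13.25 and 12.56 with DMSO and 13.21 and 13.08 with PD-0332991. The actin signal near the start of the transcript relative to its end, a measure of RNA integrity, was -0.51 and -0.73 with DMSO and lower, at -0.92 and -0.87, with PD-0332991. The same measure for GAPDH overlapped, at -0.14 and -0.14 against -0.16 and -0.13. The part of the actin ratio in the results below was not tested. The T cell label was borne out by the markers: 9 of 9 T cell markers with a probe set lay above the dim level, among them CD3D at 14.13 and 14.11 with DMSO and 14.17 and 14.17 with PD-0332991. In bulk RNA a smaller number of cells in a phase and less RNA per cell cannot be told apart.

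PD-0332991 changed 3786 genes in CEM at an adjusted p under 0.05 (limma, Benjamini-Hochberg), or 28.1% of those tested. Of these 2218 rose (16.5%) and 1568 fell (11.6%). At least 2-fold higher were 110 genes (0.816%), and 170 were at least 2-fold lower (1.26%). The median change of all genes was 0.01. Arrays of the 2 treatments did not overlap for 8736 genes (64.8%), so that a lack of overlap by itself is common here. A single array mattered for the counts. Called genes numbered 2424 without DMSO array 1, 2505 without DMSO array 2, 2370 without PD-0332991 array 1 and 2919 without PD-0332991 array 2. Without PD-0332991 array 2 the order of the 2-fold counts turned, with 174 genes at least 2-fold higher and 158 lower.

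**Figure D1:**
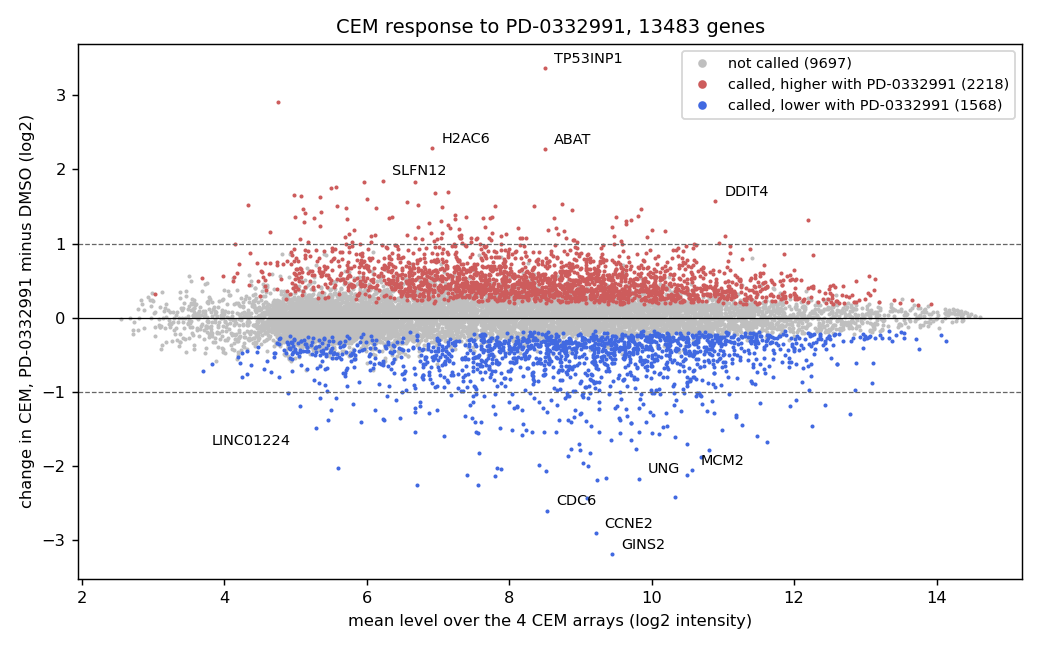
Change in CEM (log2, PD-0332991 minus DMSO, y axis) against the mean level over the 4 CEM arrays (log2 intensity, x axis) for 13483 genes, 1 point per gene, with 2218 called higher in red and 1568 called lower in blue. The dashed lines mark 2-fold, and the falls reach -3.19 (GINS2) at levels well above the dim level of 4.88.

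Several of the deepest falls were in genes that build and fire the replication origin. GINS2, a subunit of the replicative helicase, stood at 11.03 and 11.04 with DMSO and at 7.91 and 7.78 with PD-0332991, a fall of 3.19 (SE 0.08, adjusted p = 2.18e-09, limma). CCNE2, the gene of cyclin E2 that drives entry into S phase with CDK2, went from 10.60 and 10.74 to 7.96 and 7.56, a 7.50-fold fall. CDC6, which loads the MCM helicase onto origins, went from 9.90 and 9.76 to 7.19 and 7.27, or 6.07-fold lower. No array of one treatment reached the range of the other for any of these 3 genes, as the rule for naming them required. The next in order were the zinc finger gene ZNF367 (-2.43), DTL (-2.42), a receptor for protein degradation at the replication fork, the nuclease gene EXO1 (-2.26), the inositol phosphatase gene IMPA2 (-2.26) and MCM10 (-2.20). UNG, which removes uracil from DNA, fell from 11.02 and 10.80 to 8.86 and 8.61. The helicase subunit genes MCM4 (-2.17), MCM5 (-2.12) and MCM2 (-2.06), WDR76 (-2.14), the checkpoint adaptor gene CLSPN (-2.12) and the helicase cofactor gene CDC45 (-2.07) complete the 15 largest falls. Of these 15 genes 12 lie in the lists for replication, repair or the cyclins, and the exceptions are ZNF367, IMPA2 and WDR76.

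Promoter sequences were read for the genes of these falls because E2F binds a short element near the start of transcription. RefSeq promoters (GRCh38.p14, 250 bases before to 50 bases after the start) were given for 10 of the 15 genes, and 7 of them (70.0%) hold 1 of the E2F letters TTTCCCGC, TTTCGCGC, TTTGCCGC or TTTGGCGC on either strand. Among the promoters of all genes tested 554 of 10826 do (5.12%). The 120 bases before the start are shown for 3 genes, 5′ to 3′ on the strand of the gene, with the E2F matches in capitals, GINS2 at chr16:85688955-85689074 (minus strand), ZNF367 at chr9:96418371-96418490 (minus strand) and DTL at chr1:212035628-212035747 (plus strand).
GINS2: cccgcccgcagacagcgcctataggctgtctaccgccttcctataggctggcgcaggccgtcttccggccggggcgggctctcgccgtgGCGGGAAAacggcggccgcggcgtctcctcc
ZNF367: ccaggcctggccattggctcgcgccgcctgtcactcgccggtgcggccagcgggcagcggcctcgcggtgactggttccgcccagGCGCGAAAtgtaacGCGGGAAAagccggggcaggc
DTL: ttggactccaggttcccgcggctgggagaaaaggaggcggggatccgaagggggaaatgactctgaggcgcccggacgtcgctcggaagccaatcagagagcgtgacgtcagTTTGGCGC
The matches lie at -31 to -24 in GINS2, at -35 to -28 and -21 to -14 in ZNF367 and at -8 to -1 in DTL, counted from the start. Over the genes that fell at least 2-fold 40 of 135 promoters hold such letters (29.6%), and over those that rose at least 2-fold 1 of 77 does (1.30%). A match is a description of the letters and not evidence of binding.

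**Figure D2:**
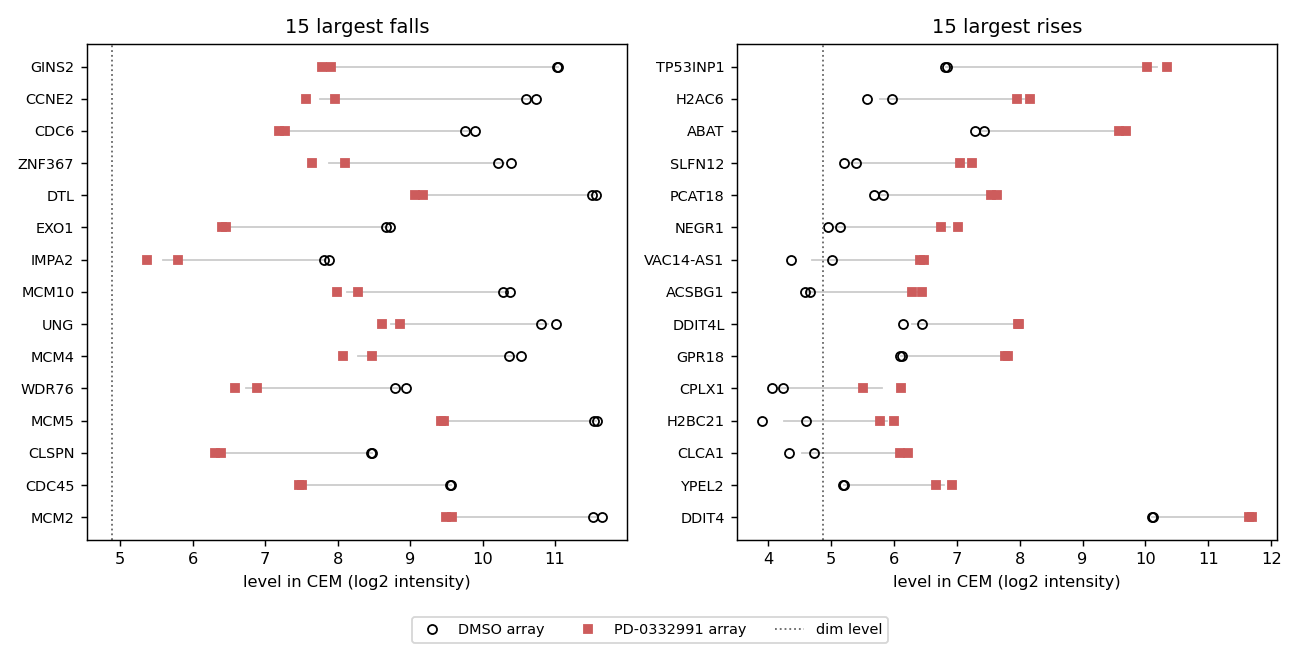
Level in each CEM array (log2 intensity, x axis) for the 15 largest falls (left) and the 15 largest rises (right) among characterised genes whose mean in CEM reached the dim level of 4.88, with open circles for DMSO arrays, red squares for PD-0332991 arrays, a grey line joining the group means and a dotted line at the dim level. That both PD-0332991 arrays lie outside the range of the DMSO arrays was a condition for choosing these 30 genes. Several rises start near or under the dim level.

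The rises were led by TP53INP1, which acts in autophagy and cell death. It stood at 6.81 and 6.84 with DMSO and at 10.35 and 10.02 with PD-0332991, 10.3-fold higher (SE 0.21 on the log2 scale, adjusted p = 8.91e-07). Its 3 probe sets ranged from -0.05 to 3.36 in change, and the one with the highest mean level over all arrays was used, by the rule for all genes. ABAT, which breaks down the transmitter GABA, rose from 7.29 and 7.44 to 9.69 and 9.58, a change of 2.27. The histone genes H2AC6 (2.29) and H2BC21 (1.64) rose as well. Unlike most histone genes these are known to give polyadenylated transcripts in cells that leave the cycle. The immune gene SLFN12 (1.85), the non-coding RNA genes PCAT18 (1.83) and VAC14-AS1 (1.76), the adhesion gene NEGR1 (1.83), the acyl-CoA synthetase gene ACSBG1 (1.75), the lipid receptor gene GPR18 (1.68) and YPEL2 (1.60) followed. DDIT4L (1.69) and DDIT4 (1.57) both encode inhibitors of mTORC1, and DDIT4 stood at 10.10 and 10.12 with DMSO and at 11.65 and 11.70 with PD-0332991. The synaptic gene CPLX1 (1.65) and CLCA1 (1.62) had both DMSO arrays under the dim level, as had H2BC21 and ACSBG1, so their changes are uncertain in size. No promoter among the 12 given for these 15 genes holds the E2F letters or the forkhead letters GTAAACA, which 2.35% of all promoters hold.

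Gene lists are given by how many members passed the test in each direction, beside the 16.5% higher and 11.6% lower of all genes, and by the median change, beside 0.01. The lists were chosen with results of these data known, so their counts describe and do not test them.

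**Figure D3:**
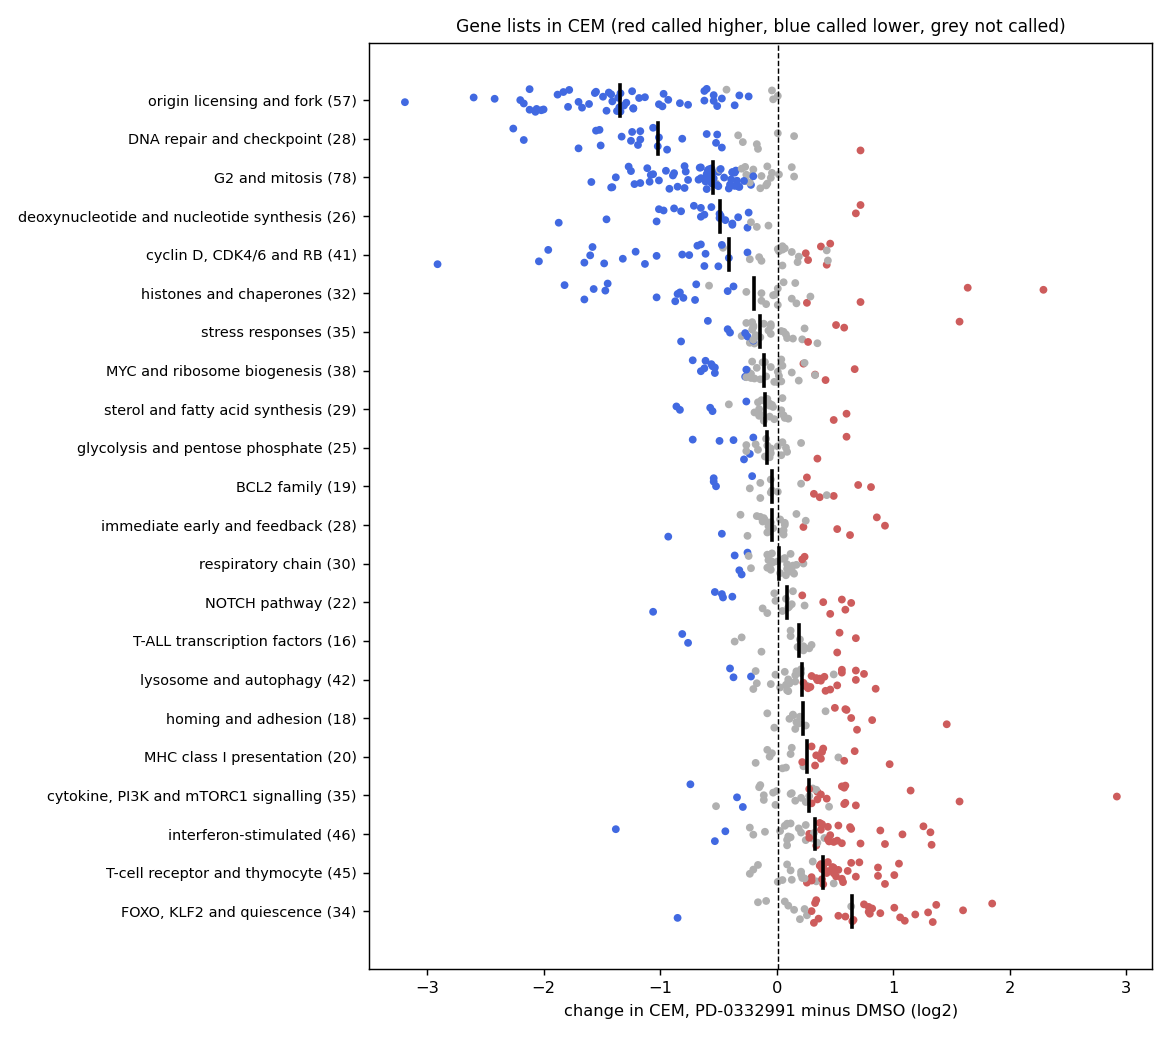
Change in CEM (log2, x axis) of each tested member of the gene lists, 1 point per gene, with members called higher in red, called lower in blue and not called in grey, black bars at list medians and a dashed line at the median of all genes (0.01). The number of tested members stands beside each list name. Medians run from -1.34 for origin licensing and fork genes to 0.65 for FOXO, KLF2 and quiescence genes.

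In the cyclin D, CDK4/6 and RB network 21 of 41 tested members fell and 5 rose (median -0.41). The first drug target, CDK4, fell from 12.03 and 11.93 to 11.31 and 11.35, a change of -0.65 (SE 0.07, adjusted p = 7.46e-05). The second, CDK6, rose slightly, from 12.80 and 12.95 to 13.08 and 13.17, a change of 0.25 (SE 0.08, adjusted p = 0.0457). CCND3, the D-type cyclin of thymocytes, rose by 0.38 (adjusted p = 0.003), from 12.34 and 12.25 to 12.69 and 12.67. The D-type cyclin genes CCND1 and CCND2 lay under the dim level in all 4 CEM arrays. CDK2 (-1.32), CCNE1 (-1.60) and CCNA2 (-0.50), which act after E2F is released, fell. Among the E2F genes E2F7 (-2.04), E2F8 (-1.58), E2F2 (-1.48), TFDP1 (-1.13) and E2F1 (-0.81) fell, while E2F3 overlapped between treatments (0.01). RB1 overlapped too, at 11.74 and 11.76 against 11.93 and 11.70. Of the other pocket protein genes RBL1 fell by 1.21, and RBL2 was higher by 0.44 without passing the test (adjusted p = 0.0587). The CDK4 and CDK6 inhibitor gene CDKN2D rose by 0.27 (adjusted p = 0.0207), and CDKN1B (0.19), CDKN1A (-0.46, adjusted p = 0.0557) and CDKN2A (0.02, near the dim level) were not called. MYBL2 fell by 1.65 and CDC25A, which activates CDK2, by 1.96. Single arrays decided the weaker calls. CDK6 was no longer called without DMSO array 1 or either PD-0332991 array of CEM (adjusted p of 0.0832 to 0.276), or without either PD-0332991 array of CUTL1 or Jurkat (0.0629 and 0.0648). CCNA2 was not called without DMSO array 1 (0.055) or PD-0332991 array 2 (0.0841), nor CDKN2D without either DMSO array or PD-0332991 array 2 (0.064 to 0.115). The 5 rises of the list were 3 without DMSO array 2 or either PD-0332991 array.

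Origin licensing and fork genes fell almost without exception, 53 of 57 tested, with none higher and a median of -1.34. Licensing factors fell in 15 of 18 (median -1.61), and MCM3 (-1.88) was one of them. The 3 not called were ORC2 (0.01), ORC4 (-0.04) and ORC5 (-0.03), core subunits of the origin recognition complex. All 10 firing factors fell (median -1.16), as did 16 of 16 clamp and fork genes (-1.39), with FEN1, which trims flaps on the lagging strand, from 12.48 and 12.42 to 10.82 and 10.73. Polymerase genes fell in 9 of 10 (-1.21), led by POLE2 (-2.00) and PRIM1 (-1.61), and PRIM2 (-0.43) was not called. The 3 tested genes of the single-strand binding complex, RPA3 (-0.62), RPA2 (-0.36) and RPA1 (-0.24), had the smallest median fall of these roles. RPA1 was no longer called without any 1 of the 4 CEM arrays (adjusted p of 0.0546 to 0.15). ORC2, ORC4, ORC5 and PRIM2 were picked after their values were seen.

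Genes of nucleotide synthesis fell in each branch. Of 26 genes 21 fell and 2 rose (median -0.49). Deoxynucleotide genes fell in 7 of 9 (median -0.82), with TK1, a thymidine kinase, from 9.87 and 9.66 to 7.97 and 7.81, a change of -1.87. RRM2, the S phase subunit of ribonucleotide reductase, went from 12.99 and 12.97 to 11.51 and 11.53 (-1.46), and TYMS, which makes thymidylate, by -0.88. RRM2B, the counterpart of RRM2 that serves cells outside S phase, rose by 0.72. Purine genes fell in 7 of 10 with a smaller median of -0.31, among them GMPS (-1.01), and the salvage gene APRT rose by 0.68. Folate (3 of 3, median -0.56) and pyrimidine genes (4 of 4, median -0.54) fell as well, such as MTHFD1 (-1.03) and CAD (-0.65). RRM2B was named after its values were seen.

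DNA repair and checkpoint genes fell in 21 of 28, with 1 higher and a median of -1.02. Homologous recombination genes fell in 10 of 11 (median -1.17), including the helicase gene BLM (-1.55) and RAD54L (-1.51). Fanconi genes fell in 6 of 7 (-1.02), among them FANCI (-1.25). The mismatch repair gene MSH6 fell from 11.73 and 11.76 to 10.23 and 10.22 (-1.52). Among checkpoint kinases CHEK1 (-1.70) and CHEK2 (-0.60) fell, while ATM, which responds to double-strand breaks, rose by 0.72 from 7.04 and 7.30 to 7.98 and 7.78. The ATM call was lost without DMSO array 1 (adjusted p = 0.0515).

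Of 13 chaperone and DNA methylation genes 10 fell (median -0.87), with CHAF1A (-1.65) and ASF1B (-1.47), which deliver histones to new DNA, and SLBP (-1.45), which binds histone messages. Of 33 replication-dependent histone genes 17 were tested, of which 3 rose and 3 fell, with a median of -0.01, and H2BC12 rose by 0.72 beside the 2 histone genes named above. Several histone probe sets match near-identical copies, so these values are uncertain for single genes. The variant gene H2AX fell by 0.69.

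Genes of G2 and mitosis fell in 59 of 78, with none higher, but by less than the replication genes (median -0.54 against -1.34). The entry kinase gene WEE1 went from 10.54 and 10.68 to 9.36 and 9.33 (-1.27), and the centriole kinase gene PLK4 fell by 1.09. FOXM1, the transcription factor of this gene group, went from 9.85 and 9.90 to 8.97 and 8.94, a change of -0.92. MKI67, the gene of the proliferation antigen Ki-67, changed only from 8.98 and 8.70 to 8.21 and 8.35 (-0.56, adjusted p = 0.00837), and was not called without DMSO array 1 (0.0837) or PD-0332991 array 1 (0.0654). The mitotic kinase genes PLK1 (-0.04) and AURKA (-0.08), the cyclin gene CCNB1 (-0.13) and the topoisomerase gene TOP2A (-0.30, adjusted p = 0.151) were not called. AURKA stood at 11.19 and 11.17 with DMSO and at 11.11 and 11.08 with PD-0332991. Kinetochore genes fell in 15 of 21 (median -0.55), with CENPU (-1.59) and CENPM (-1.42) lowest, kinesin and spindle genes in 12 of 17 (-0.45), and condensin and cohesin genes in 11 of 11 (-0.79), such as CDCA5 (-1.38). PLK1, AURKA and CCNB1 were picked after their values were seen.

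Set against the other lines, the mitotic falls were where CEM stood apart most often. The difference between the CEM change and the mean change of CUTL1, DND41 and Jurkat was called for 49 of the 78 genes, all 49 above. Over all genes 3.03% were called, 2.41% above and 0.623% below the other lines. Not all of the 49 were called lower in CEM itself, and TOP2A was among those not called. The CEM change was the highest of the 4 lines in 57 of the 78, beside 3234 of all 13483 genes tested. The list medians were -0.54 in CEM, -1.26 in CUTL1, -0.78 in DND41 and -1.41 in Jurkat. In the exit and ubiquitin genes of the list DND41 fell less than CEM (medians -0.12 and -0.28). In its other roles CEM had the smallest median fall, with DND41 close for mitotic entry (-0.52 against -0.42). For origin licensing and fork genes the difference was called for 14 of 57, again all above, with medians of -1.34, -1.88, -1.21 and -1.76, so that the DND41 median was the smallest fall there. The 49 became 25 without CEM DMSO array 2, 23 without CEM PD-0332991 array 1 and 32 without the CUTL1 arrays, and lay between 34 and 62 in the other settings tried.

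**Figure D4:**
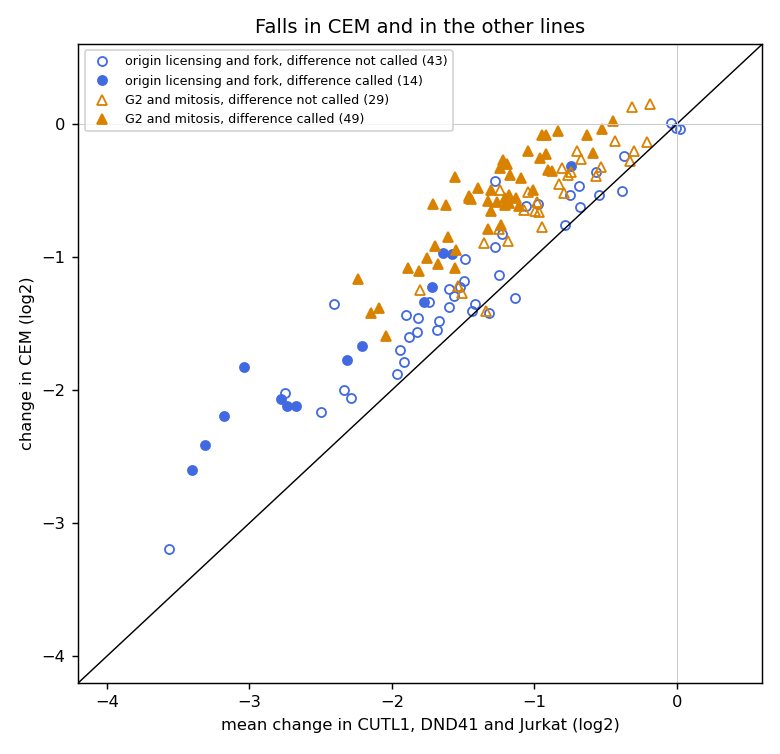
Change in CEM (log2, y axis) against the mean change in CUTL1, DND41 and Jurkat (log2, x axis) for 57 origin licensing and fork genes (blue circles) and 78 genes of G2 and mitosis (orange triangles), with filled symbols where the difference was called (14 and 49) and a black line of equality. Most points lie above the line, where the change in CEM is above the mean of the other lines.

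The promoters of G2 and mitosis genes differed from those of replication genes in some of the letters searched and shared others. The cell cycle homology region, the element through which MuvB complexes bind, was searched as TTTGAA or TTCGAA on either strand. It was found in 48 of 64 given promoters of this list (75.0%), in 3 of 49 of origin licensing and fork genes (6.12%) and in 11.5% of all. The E2F letters were found in 6 of the 64 (9.38%) and in 21 of the 49 (42.9%). The letters CCAAT, on either strand, were common in both, in 45 of the 64 (70.3%) and 28 of the 49 (57.1%), beside 36.5% of all. They were also in 80% of the 10 promoters of the largest falls and 66.7% of the 12 of the largest rises. Among the 123 genes that fell in CEM and fell less than in the other lines 53 of 105 promoters hold the homology region (50.5%). Among the genes that fell at least 2-fold 20 of 135 do (14.8%). The 123 include genes of the G2 and mitosis list, such as KIF23, so their share is not separate from that of the list. The 120 bases before the start are shown for the 3 genes of this list with the largest called difference from the other lines and a match in that stretch, with the matches in capitals, KIF23 at chr15:69414229-69414348, ANLN at chr7:36389742-36389861 and KIF11 at chr10:92593010-92593129, all on the plus strand (RefSeq, GRCh38.p14).
KIF23: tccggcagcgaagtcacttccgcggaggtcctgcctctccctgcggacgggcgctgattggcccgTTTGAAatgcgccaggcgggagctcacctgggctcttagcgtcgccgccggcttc
ANLN: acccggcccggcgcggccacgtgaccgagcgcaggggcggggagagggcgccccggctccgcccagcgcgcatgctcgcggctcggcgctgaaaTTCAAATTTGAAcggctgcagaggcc
KIF11: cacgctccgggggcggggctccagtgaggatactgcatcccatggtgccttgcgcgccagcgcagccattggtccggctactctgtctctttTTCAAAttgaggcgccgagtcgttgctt
KIF23, a kinesin of the midbody, fell by 0.40 in CEM, from 8.61 and 8.45 to 8.24 and 8.02, beside changes of -1.58 in CUTL1, -1.55 in DND41 and -1.55 in Jurkat. ANLN, an actin-binding protein of the cleavage furrow, fell by 0.60 in CEM beside changes of -1.59, -1.59 and -1.95 in the same order. KIF11, the kinesin that separates spindle poles, fell by 0.48 in CEM beside -1.54, -0.95 and -1.71. The differences from the mean of the other lines were 1.16, 1.11 and 0.92 (adjusted p = 0.00269, 0.0106 and 0.000621). The ANLN difference was not called without either DMSO array or PD-0332991 array 1 of CEM (adjusted p of 0.0545 to 0.0811). The CEM falls of KIF23 (0.0601 to 0.208) and ANLN (0.0786 to 0.134) were not called without either DMSO array or PD-0332991 array 2. KIF23 and KIF11 were picked after their values were seen.

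Genes of T cell identity rose. Of 45 genes of the T cell receptor and of thymocytes 30 rose, none fell, and the median was 0.40. The list median was 0.27 in CUTL1, 0.17 in DND41 and 0.28 in Jurkat. The recombination genes RAG1 (1.01), RAG2 (0.93) and DNTT (0.87) rose, 3 of 3. RAG1, a subunit of the recombinase, went from 10.40 and 10.47 to 11.61 and 11.29, and DNTT, which encodes terminal transferase, from 11.47 and 11.39 to 12.30 and 12.29. Surface receptors rose in 11 of 15 (median 0.49), with the costimulatory receptor gene CD28 from 9.57 and 9.42 to 10.28 and 10.13 and the thymocyte antigens CD1A (0.53) and CD1B (0.56). Signalling genes rose in 8 of 10 (median 0.41), such as LAT (0.48) and UBASH3A (0.61). Receptor chains rose in 3 of 5, CD247 (0.49), CD3E (0.37) and PTCRA (0.40), while CD3D (0.05) was not called at a level near 14. Among transcription factor genes 5 of 12 rose, GATA3 (0.39) with the smallest p. In homing and adhesion 7 of 18 rose and none fell (median 0.22, beside 0.34 in CUTL1, 0.11 in DND41 and 0.27 in Jurkat). CCR9, the chemokine receptor that directs cells to thymus and gut, rose from 9.22 and 9.04 to 10.60 and 10.58 (1.46), beside changes of 0.46 in CUTL1, 0.13 in DND41 and 1.06 in Jurkat. ITGAL (0.82), SELPLG (0.64) and S1PR1 (0.59) rose, and CCR7 (0.14) overlapped between treatments. The summed intensity of the 9 T cell markers lay between 33600 and 34400 with DMSO and between 38800 and 39400 with PD-0332991. The 30 rises of the list became 19 without DMSO array 2 and 16 without PD-0332991 array 1. RAG2 was not called without DMSO array 2 (adjusted p = 0.0753) or PD-0332991 array 1 (0.0777), nor CD3E without DMSO array 2 or either PD-0332991 array (0.0607 to 0.161). CD3D was named after its values were seen.

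Cytokine, PI3K and mTORC1 signalling genes rose in 15 of 35 and fell in 3 (median 0.28). Their median was 0.30 in CUTL1, 0.21 in DND41 and 0.24 in Jurkat. The 3 falls were 1 without either DMSO array and 0 without PD-0332991 array 1. The brakes on mTORC1 rose in 4 of 8, with SESN3 first, a stress-induced inhibitor, which was under the dim level with DMSO (3.10 and 3.51) and above it with PD-0332991 (6.41 and 6.03). Beside DDIT4, SESN2 rose by 0.58 in CEM while it changed by -0.20 in CUTL1, 0.23 in DND41 and -0.20 in Jurkat, a difference of 0.64 from their mean (adjusted p = 0.0136). That difference was not called without CEM DMSO array 2 (0.0878), CEM PD-0332991 array 2 (0.0513) or the CUTL1 arrays (0.0707). Receptor genes rose in 3 of 8, IL21R (1.15), IL7R (0.59) and IL2RG (0.35). STAT3 (0.59), JAK3 (0.56), SOCS1 (0.68) and PIK3CG (0.58) rose.

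Genes linked to FOXO, KLF2 and quiescence had the highest list median, 0.65, with 24 of 34 higher and 1 lower. The list median was 0.44 in CUTL1, 0.36 in DND41 and 0.60 in Jurkat. FOXO factors are held out of the nucleus by AKT, and several of these genes are marks of resting lymphocytes. YPEL5 rose from 9.18 and 9.07 to 10.49 and 10.49 (1.37), and the histone demethylase gene KDM5B from 7.97 and 7.94 to 9.33 and 9.27 (1.34). The antiproliferative genes BTG1 (0.79) and TOB1 (0.65), the repressor gene HBP1 (0.89), KDM7A (1.01), KLF2 (0.59) and TXNIP (0.53) rose. FOXO1 (-0.09) overlapped between treatments near the dim level. The rise of KLF2 was not called without any 1 of the 4 CEM arrays (adjusted p of 0.0521 to 0.214) or either PD-0332991 array of Jurkat (0.0508). SLFN11, the 1 member that fell, changed by -0.85 and was named after its values were seen.

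GADD45A, a stress gene that slows the cycle, rose from 8.28 and 8.13 to 9.14 and 8.94 (0.83). In the BCL2 family 6 of 19 rose and 4 fell. Survival genes BCL2A1 (0.81), BCL2L1 (0.49) and MCL1 (0.26) rose and BCL2 fell by 0.54. The death gene BCL2L11, which encodes BIM, fell in CEM, from 7.53 and 7.69 to 7.19 and 6.94 (-0.54, adjusted p = 0.00471), and another death gene, BIK, rose from 10.01 and 10.15 to 10.73 and 10.83 (0.70). BCL2A1 was not called without DMSO array 1 (adjusted p = 0.0566) or PD-0332991 array 1 (0.0857), nor MCL1 without DMSO array 2 (0.0998) or PD-0332991 array 2 (0.0828). The 6 rises of the family were 3 without DMSO array 2 or PD-0332991 array 1.

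NOTCH pathway genes were split, 6 of 22 higher and 5 lower (median 0.09). NOTCH1 overlapped between treatments at 9.89 and 9.97 against 9.66 and 10.03, HES1 rose from 10.41 and 10.68 to 11.11 and 11.25 (0.64) and HES4 fell by 1.06. MYC, a NOTCH1 target in T-ALL, was at 11.29 and 11.37 with DMSO and at 11.39 and 11.54 with PD-0332991 (0.13, not called). The 5 falls of the pathway were 3 without DMSO array 1 or either PD-0332991 array. Of the 38 genes of the MYC network and ribosome biogenesis 10 fell and 4 rose (median -0.11). The falls lay in ribosome assembly, with MRTO4 (-0.72), LYAR (-0.65) and TSR1 (-0.53), and in polyamine synthesis, with ODC1 from 12.56 and 12.54 to 11.87 and 11.99 (-0.62) and SRM (-0.56). The 4 rises were MAX (0.42), the partner of MYC, and MXD1 (0.67), MNT (0.33) and MXI1 (0.23), whose products compete with MYC for MAX. They were 2 without DMSO array 1 or PD-0332991 array 1. MXD1 was not called without DMSO array 1 (adjusted p = 0.0903) or PD-0332991 array 1 (0.0748), MXI1 without either PD-0332991 array or DMSO array 1 (0.0894 to 0.184), and MNT without either PD-0332991 array or DMSO array 2 (0.0965 to 0.191). MNT was named after its values were seen. MAX was at -0.01 and not called when probe sets shared between transcripts were left out. The fall of ODC1 exceeded that of the other lines by -0.39 (adjusted p = 0.0204), a difference not called without either DMSO array or PD-0332991 array 1 of CEM (0.0847 to 0.149), nor without the CUTL1 (0.0872) or the DND41 arrays (0.0749).

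Interferon-stimulated genes rose in 24 of 46 and fell in 3 (median 0.33). Their median was 0.21 in CUTL1, 0.13 in DND41 and 0.38 in Jurkat. The factor gene IRF9 went from 6.49 and 6.55 to 7.74 and 7.81 (1.26), and ISG20 (0.93) and IFI6 (0.63) rose. RSAD2, an antiviral effector, rose by 1.08 in CEM beside changes of -0.92 in CUTL1, 0.29 in DND41 and 0.29 in Jurkat, a difference of 1.19 (adjusted p = 0.0076). It was not called without CEM DMSO array 2 (0.0576) or PD-0332991 array 1 (0.056), and was 0.79 without the CUTL1 arrays (0.0826). HERC5, a ligase for the ubiquitin-like protein ISG15, fell by 1.38 from 9.58 and 9.47 to 8.14 and 8.14. Genes of MHC class I presentation rose in 10 of 20 and none fell (median 0.27), with HLA-E from 11.22 and 11.12 to 11.75 and 11.75 (0.58) and TAPBPL (0.67) and PSMB10 (0.38). Without DMSO array 2 the rises of the interferon list numbered 15 and those of the class I list 4, and without PD-0332991 array 1 they numbered 15 and 6. The 3 falls of the interferon list were 1 without PD-0332991 array 2. RSAD2 was named after its values were seen.

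The metabolic lists moved little, with 1 list excepted. Lysosome and autophagy genes rose in 19 of 42 and fell in 3 (median 0.22), with the protease gene CTSS (0.68), the autophagy kinase gene ULK1 (0.85) and TFE3 (0.52) higher. Sterol and fatty acid genes had 2 higher and 5 lower of 29 (median -0.10), with ACAT2 (-0.86) and EBP (-0.83) lowest. Glycolysis and pentose phosphate genes had 2 higher and 6 lower of 25 (-0.08), with ENO2 (-0.72) and TPI1 (-0.37) among the falls. The respiratory chain had 2 higher and 4 lower of 30 (0.02), where ATP5MC1, a subunit of the ATP synthase, fell from 11.60 and 11.67 to 11.23 and 11.32. Lysosome rises numbered 12 without DMSO array 2 and 11 without PD-0332991 array 1, and glycolysis falls 2 without DMSO array 1 or PD-0332991 array 1. Glycolysis had no rise without DMSO array 2 or PD-0332991 array 1, and sterol and fatty acid genes had 1 without DMSO array 1 or PD-0332991 array 1. The respiratory chain had 0 rises and 1 fall without either DMSO array or PD-0332991 array 1, 1 rise and 2 falls without PD-0332991 array 2 or any 1 of the PD-0332991 arrays of CUTL1 or Jurkat, and 1 rise and 3 falls without either DMSO array of DND41.

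Of 35 stress response genes 4 rose and 7 fell (median -0.14), with CEBPG (-0.82) and PHGDH (-0.59) lowest and EDEM1 (0.51) among the rises. The 7 falls were 4 without either DMSO array of CEM or of DND41, and 3 without either PD-0332991 array of CEM or of Jurkat. Immediate early and feedback genes had 5 higher and 2 lower of 28 (-0.04). The ERK phosphatase gene DUSP6 rose from 10.87 and 10.95 to 12.03 and 11.65 (0.93), SPRY1 by 0.86 and TNFAIP3, an inhibitor of NF-kB, by 0.63, while CD83 fell by 0.93. Of 16 T-ALL transcription factor genes 3 rose and 2 fell (median 0.19), and the 2 falls were 1 without either DMSO array or PD-0332991 array 2. TAL1 fell from 8.85 and 8.93 to 8.12 and 8.14 (-0.76), and HHEX rose from 9.33 and 9.28 to 9.83 and 9.85 (0.54) beside changes of -0.23, -0.17 and 0.21 in CUTL1, DND41 and Jurkat.

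Marker genes of other cell types were in part above the dim level in CEM. Of 9 B cell markers with a probe set 5 reached the dim level, and their summed intensity was 937 to 1010 with DMSO and 1130 to 1260 with PD-0332991, while MS4A1, PAX5, BLNK and EBF1 stayed under it. VPREB1, a part of the surrogate light chain, was highest of them, at 8.37 and 8.26 with DMSO and 8.76 and 8.85 with PD-0332991. Myeloid markers summed to 8090 to 8480 and 8510 to 8660. Most of this was AIF1, at 12.94 and 13.01 with DMSO and 13.02 and 13.05 with PD-0332991, which reached the dim level with CSF1R and CSF3R, while 8 of 11, among them CD14, LYZ and MPO, were under it. NK and cytotoxic markers summed to 719 to 724 and 788 to 791, and 6 of 10 reached the dim level, led by GZMA (8.08 as the mean of the 4 arrays) and NKG7 (7.72), with KLRD1, GNLY, GZMB and GZMK under it. Fibroblast and endothelial markers summed to 1260 to 1370 and 1520 to 1550, with 7 of 10 dim and PECAM1 (10.04) highest. Erythroid and megakaryocyte markers summed to 406 to 426 and 396 to 397, with 5 of 7 at the dim level, EPOR (7.32) highest and ALAS2 and KLF1 dim. Epithelial markers summed to 282 to 311 and 265 to 268, with 5 of 8 at the dim level and none above 6 as a mean. The part of these sums in the results was not tested, and the markers named here were picked after their values were seen.

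How much of the response CEM shared was counted from each line's own calls. These have separate controls but share 1 estimate of the spread of each gene, so they are not independent. Of the 2218 genes that rose in CEM 63.8% also rose in Jurkat (67.1% of Jurkat's rises), 52.3% in CUTL1 (59.0%) and 33.7% in DND41 (50.0%). Of the 1568 that fell 69.6% also fell in Jurkat (71.1% of its falls), 66.6% in CUTL1 (61.2%) and 63.0% in DND41 (42.9%). Among all 13483 genes tested 2110 rose in Jurkat, 1966 in CUTL1 and 1495 in DND41, and 1535, 1707 and 2305 fell. The shares depend on these numbers. All 3 other lines shared 762 falls (48.6%) and 492 rises (22.2%) of CEM. Among all genes tested 885 fell and 542 rose in all 3 other lines, so that CEM shared 86.1% and 90.8% of these. Of the CEM calls 229 falls and 433 rises were called in none of them. How many of all genes tested were called in none of the 3 was not counted. CEM had 170 genes at least 2-fold lower, against 428 in CUTL1, 303 in DND41 and 312 in Jurkat, and 110 at least 2-fold higher, against 45, 20 and 71. The 112 genes that fell at least 2-fold in all 4 lines had medians of -1.43 in CEM, -2.20 in CUTL1, -1.46 in DND41 and -2.04 in Jurkat. CEM was the weakest in 60 of them and the strongest in 2.

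The test of the difference called 409 genes in CEM against the mean of the other lines (3.03%), 325 above and 84 below. In 375 of them the CEM change lay outside those of all 3 lines, and for 50 of these the difference was called against each line singly, 48 above and 2 below. The 325 above were of several kinds, with 123 that fell less in CEM, 146 that rose in CEM and 56 not called in CEM. The 84 below were 59 that fell in CEM and 25 not called there, and none rose. The number of genes called against single lines was 693 for CUTL1, 1255 for DND41 and 266 for Jurkat. These counts depended on single arrays and lines. They were 191 without CEM DMSO array 1, 145 without CEM DMSO array 2, 120 without CEM PD-0332991 array 1, 650 without DND41 PD-0332991 array 2, 194 without the CUTL1 arrays and 678 without the Jurkat arrays.

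Of the 10 largest differences above the other lines 7 were of genes that rose in CEM and 3, with CCNE2 (1.91) first, of genes that fell less. NEGR1, a cell adhesion gene, went from 5.15 and 4.96 to 7.02 and 6.75 in CEM (1.83), with changes of -0.06 in CUTL1, 0.41 in DND41 and 0.12 in Jurkat, a difference of 1.68 (adjusted p = 0.000621). DDIT4L went from 6.45 and 6.14 to 7.98 and 7.99 in CEM (1.69) and changed by -0.04, 0.39 and -0.04 elsewhere, a difference of 1.59 (adjusted p = 0.000621). Both were called in DND41 as well and in neither CUTL1 nor Jurkat. VAC14-AS1, CLCA1 and the urea transporter gene SLC14A1 had differences of 1.84, 1.79 and 1.58, from DMSO arrays near or under the dim level, and were called in none of the other lines. The SLC14A1 difference was not called without CEM DMSO array 2 (1.43, adjusted p = 0.0842), CEM PD-0332991 array 1 (1.45, 0.0921) or the DND41 arrays (1.45, 0.0521). SLFN12 rose by 1.85 against 0.20, 0.20 and 0.55, a difference of 1.53. TP53INP1 rose in every line, by 3.36 in CEM and by 0.75 in CUTL1, 2.20 in DND41 and 2.10 in Jurkat, a difference of 1.68 (adjusted p = 0.00466). CPLX1, ACSBG1, ABAT and GPR18 also rose more in CEM, by 1.27, 1.33, 1.13 and 0.85.

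Other genes above the lines fell less in CEM. CCNE2 fell by 2.91 in CEM beside changes of -5.96, -3.66 and -4.83 in CUTL1, DND41 and Jurkat, a difference of 1.91 (adjusted p = 0.00224). E2F8, whose product represses E2F targets late in S phase, fell by 1.58 in CEM beside -3.54, -2.84 and -3.53. Its close relative E2F7 had a change of -2.04 in CEM beside -4.33, -2.56 and -3.85. RRM2 fell by 1.46 in CEM beside -2.99, -1.94 and -3.53, a difference of 1.36 (adjusted p = 7.51e-05). These genes fell in all 4 lines, so the difference is one of size.

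**Figure D5:**
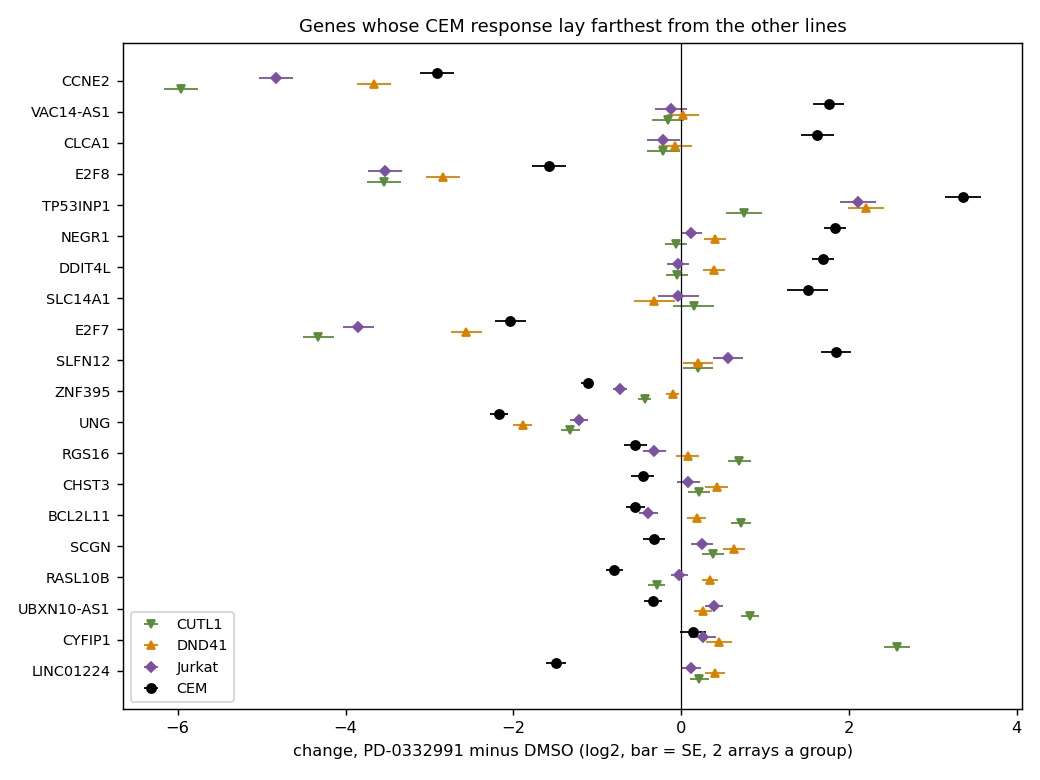
Change with PD-0332991 (log2, x axis; bars are SE of the fit, 2 arrays a group) in CEM (black), CUTL1, DND41 and Jurkat for the 10 genes farthest above and the 10 farthest below the mean of the other lines by the rule for named genes. VAC14-AS1, CLCA1 and SLC14A1 were called higher in CEM alone of the 4 lines, and LINC01224 fell in CEM by 1.49 beside changes of 0.12 to 0.41.

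Below the other lines the non-coding RNA gene LINC01224 stood out. It went from 5.94 and 6.14 to 4.61 and 4.48 in CEM (-1.49), and changed by 0.22 in CUTL1, 0.41 in DND41 and 0.12 in Jurkat, a difference of -1.74 (adjusted p = 0.000291). UNG was the 1 gene among the 15 largest falls that fell more in CEM than in any other line, with -2.17 beside changes of -1.32, -1.89 and -1.22, a difference of -0.70 (adjusted p = 0.0157). It was not called without CEM DMSO array 1 (-0.58), CEM PD-0332991 array 2 (-0.57), the CUTL1 arrays (-0.62) or the Jurkat arrays (-0.57). The transcription factor gene ZNF395 fell by 1.11 beside changes of -0.44, -0.10 and -0.73. RASL10B, of the RAS family, fell by 0.80 beside changes of -0.29, 0.34 and -0.02. BCL2L11 fell in CEM by 0.54 and changed by 0.71 in CUTL1, 0.18 in DND41 and -0.39 in Jurkat, a difference of -0.71 (adjusted p = 0.0158). For BCL2L11 it was -0.44 and not called without the CUTL1 arrays, and was not called either without CEM DMSO array 2 (-0.64) or PD-0332991 array 2 (-0.59). RGS16, a brake on G protein signalling, CHST3, SCGN and UBXN10-AS1 had differences of -0.70, -0.70, -0.75 and -0.82. The RGS16 difference was not called without any 1 of the 4 CEM arrays (adjusted p of 0.0934 to 0.158) nor without 7 of the other 12. CHST3 was not called without DMSO array 1 or either PD-0332991 array of CEM (0.073 to 0.192) nor without 7 of the other 12, and SCGN without the same 3 CEM arrays (0.0741 to 0.105). For UBXN10-AS1 the call of its own fall in CEM was lost on removal of any 1 of 8 arrays. CYFIP1 was at -0.95 and not called for its own change in CEM (0.14, adjusted p = 0.540), beside a rise of 2.57 in CUTL1, and its difference was not called without any 1 of the 4 CEM arrays (0.0607 to 0.0791).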

How the data were processed

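RNA of 16 samples (5 ng amplified each) was read on Affymetrix U133 Plus 2.0 arrays. Values are intensities processed by the authors with RMA, per the submitters' processing notes, and deposited on a linear scale (4.42 to 26097, array medians 28.5 to 31.2), so log2 was taken here with no further scaling or pseudocount. Of 54675 probe sets 41097 have 1 gene symbol in GEO's platform annotation (1801 several, 11777 none here), and RefSeq (GRCh38.p14) held 41043 of their gene IDs. A gene with several probe sets is read from the one of highest average level. Genes were tested where some line's mean level was at or above 4.88 on the log2 scale, the median of all deposited intensities (29.5). limma 3.58.1 (R 4.3.3) fitted 8 group means to all 16 arrays, which share 1 spread (8 residual degrees of freedom). The fit was also run on simulated data with changes in a small set of genes in CEM alone. In the real data many genes changed in every line, so that run does not cover their setting. Tests are two-sided, with Benjamini-Hochberg adjustment over all 13483 genes and a threshold of 0.05. The number of arrays limits precision. Named genes are the 15 largest called rises and falls among characterised genes with a mean of at least 4.88 in CEM and no overlap of arrays, the 10 largest called differences each way from the other lines at such levels with CEM outside them, up to 3 members per list role by p in CEM, and a fixed set of cell cycle and T-ALL genes. The members and lists were chosen with earlier results of these data known. Alternatives were the scaling, the choice of probe set, filters, a pseudocount of 16, a trend in the variance, CEM arrays alone, a replicate block and leaving out arrays or lines. Of 830 list entries 86 were not tested and are left out of the counts.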

Additional observations from a re-analysis of the deposited data

Results flagged for a closer look

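The test of the difference between the CEM change and the mean change of CUTL1, DND41 and Jurkat drew attention to 409 genes. The genes singled out by the rule for naming were searched, together with KIF23, ANLN and KIF11. Of these 65 had a called difference and a CEM change outside those of the other 3 lines, 51 above and 14 below. Other genes picked in the report, such as RSAD2, are not in this count. Groups of 2 arrays are too small for a search for single arrays far from the rest. Values are log2 differences (CEM minus the mean of the other lines, limma, adjusted p under 0.05).

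Replication and E2F network genes that fell less in CEM were CCNE2 (1.91), E2F8 (1.72), E2F7 (1.54), RRM2 (1.36), ZNF367 (1.09), EXO1 (1.02), MCM10 (0.98), NEIL3 (0.97), E2F2 (0.95), DTL (0.90), CCNA2 (0.88), TYMS (0.74), CDC45 (0.71), FANCI (0.71), TK1 (0.68), CLSPN (0.62) and RAD54L (0.56). The inhibitor gene CDKN2D, which rose in CEM, stood at 0.45.

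Mitotic genes above the other lines were KIF23 (1.16), ANLN (1.11), KIF11 (0.92), MKI67 (0.90), TOP2A (0.89), CDCA2 (0.88), NCAPH (0.80), FOXM1 (0.78), KIF15 (0.76), NCAPG (0.74), CENPM (0.73), MELK (0.70), CDCA3 (0.65), SPC24 (0.62) and KIF4A (0.49).

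Genes that rose in CEM and stood above the other lines were VAC14-AS1 (1.84), CLCA1 (1.79), TP53INP1 (1.68), NEGR1 (1.68), DDIT4L (1.59), SLC14A1 (1.58), SLFN12 (1.53), SESN3 (1.46), ACSBG1 (1.33), CPLX1 (1.27), ABAT (1.13), CCR9 (0.92), GPR18 (0.85), SESN2 (0.64), HHEX (0.60), GADD45A (0.52), CD28 (0.45) and DDIT4 (0.38).

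Genes below the other lines were LINC01224 (-1.74), CYFIP1 (-0.95), UBXN10-AS1 (-0.82), RASL10B (-0.81), CCND2 (-0.80, under the dim level in CEM), SCGN (-0.75), BCL2L11 (-0.71), CHST3 (-0.70), RGS16 (-0.70), UNG (-0.70), ZNF395 (-0.69), SRM (-0.48), ODC1 (-0.39) and ATP5MC1 (-0.38).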

How the results depend on the processing

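Each call of the report rests on 2 arrays a group, and the counts against the other lines depended on the processing more than the response itself. Without probe sets ending in _x_at or _s_at 1008 genes were lower in CEM and 243 differed from the other lines (199 above, 44 below). With the mean of all probe sets of a gene 63 genes were at least 2-fold higher. Genes below the other lines numbered 46 with arrays centred on their medians, 50 with no filter and 52 without the DND41 arrays. Without the CUTL1 arrays 194 differed (152 above, 42 below), and without the Jurkat arrays 678 (545 above, 133 below). Leaving out 1 array at a time gave 2370 to 4025 called genes (1198 to 2359 higher, 1005 to 1666 lower), 93 to 174 at least 2-fold higher, 157 to 190 at least 2-fold lower, and 120 to 650 against the other lines (95 to 504 above, 22 to 146 below). The cause was not tested. The direction turned for NPM1 (-0.232) and CCNB2 against the other lines (-0.002) with the mean of probe sets, for CHST3 (0.046, and 0.029 against the other lines) with the probe set highest in CEM, and without shared probe sets for CD300A (-0.093), DSCC1 (0.068, and -0.083 against the other lines), IDI1 (0.158), MAX (-0.013), PPAT (0.431) and TPP1 (-0.135). Scalings moved the median of all genes from 0.015 to values of -0.003 to 0.046. The replicate numbers were not used to pair arrays in the main fit. Deviations of same-numbered arrays of a line correlated at 0.08 in CEM, 0.19 in CUTL1, -0.11 in DND41 and 0.10 in Jurkat. From 2 arrays a group these values cannot show whether the arrays were paired. With the replicate block 3363 genes were called in CEM and 224 against the other lines (199 above, 25 below). The differences of CCNE2, TP53INP1, NEGR1, DDIT4L, RRM2 and LINC01224 were called under each alternative that gave them a value.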
